A study of Mus musculus and other sequences with 2 samples.

Results

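The miR-30 family was examined in media conditioned by murine blastocysts and in blank media. Its assays were found by name in the deposited Ct table, as those beginning mmu-miR-30 followed by a letter from a to e and not marked #, the sign for the minor arm of a hairpin. This gave 7 of the 750 miRNA assays on the arrays. Of the 7, 5 measure the main (5p) arms of mmu-miR-30a, mmu-miR-30b, mmu-miR-30c, mmu-miR-30d and mmu-miR-30e, and these are called the miR-30 members here. The other 2, miR-30a-3p and miR-30e-3p, measure the opposite arms of the same hairpins under names without #, and they were described with the 4 opposite-arm assays marked #, so that 11 miR-30 assays were examined in all.

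Conditioned media came from 1 microdroplet of 8 μL of KSOM in which 25 CD1 embryos were cultured from 99 to 116 h post-hCG, and blank media from 1 microdroplet kept for the same 17 h without embryos. Per the labels, both media were free of BSA and held polyvinylacetate in its place, the zygotes came from superovulated females that were 3 weeks old, and the embryos were blastocysts; the methods describe them as compacted or cavitating morulae when conditioning began. From each droplet, 6 μL was lysed, reverse transcribed, pre-amplified for 12 cycles and amplified for up to 40 cycles on TaqMan rodent array cards A and B. There was 1 sample per medium and 1 well per miR-30 assay, so that the media were compared without a test. Each value is a Ct, the cycle at which fluorescence crosses a threshold, for which 1 cycle earlier stands for a doubling of template at full PCR efficiency. Because 25 embryos shared a droplet, release per embryo and the number of releasing embryos cannot be told apart.

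MicroRNAs guide Argonaute proteins to mRNAs, largely through the seed, bases 2 to 8 from the 5′ end, and miRNAs with the same seed are grouped as a family because they can bind many of the same targets. The miR-30 family is expressed broadly in mammalian tissues and is known for repressing Snai1, a driver of epithelial–mesenchymal transition, and the matricellular growth factor gene Ctgf. In reproduction, miR-30d is known as a miRNA secreted by the endometrium and taken up by the pre-implantation embryo. In the annotation of mouse assembly GRCm38.p6, the 6 hairpin genes of the members lie as 3 neighbouring pairs, Mir30a with Mir30c-2 on chromosome 1, Mir30c-1 with Mir30e on chromosome 4, and Mir30b with Mir30d on chromosome 15.

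Mature sequences were taken from RefSeq (GRCm38.p6) and were matched by name to 7 of the 11 miR-30 assays, not to those of miR-30b, miR-30d and their opposite arms, the main arm being read as 5p and the # arm as 3p. The main-arm sequences are shown, with the seed in capitals, because they show how alike the measured targets are, and miR-384-5p is shown with them because it carries the same seed outside the family name.
miR-30a-5p: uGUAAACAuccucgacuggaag
miR-30c-5p: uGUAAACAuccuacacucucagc
miR-30e-5p: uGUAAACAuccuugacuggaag
miR-384-5p: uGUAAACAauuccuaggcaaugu

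Counting positions from 1 at the 5′ end, miR-30a-5p and miR-30e-5p were identical at 21 of 22 positions and differed by C13U, with the base of miR-30a-5p first. Compared with miR-30a-5p, miR-30c-5p shared its first 12 bases and differed at 5 of the 22 positions compared, 13, 14, 18, 19 and 20. Beyond the first 8 bases, miR-384-5p matched miR-30a-5p at few positions, with 12 of 22 identical in all. No mature name of the table outside miR-30 other than miR-384-5p carried the seed GUAAACA.

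The sequences of the opposite arms are shown because they fall into other seed groups and therefore are not part of the family in the sense of its seed.
miR-30a-3p: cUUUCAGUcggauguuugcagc
miR-30e-3p: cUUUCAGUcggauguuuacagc
miR-30c-1-3p: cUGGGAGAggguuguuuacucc
miR-30c-2-3p: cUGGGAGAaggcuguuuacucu

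Again, miR-30a-3p and miR-30e-3p were identical at 21 of 22 positions and differed by G18A. The opposite arms of the 2 miR-30c hairpins shared the seed UGGGAGA and were identical at 19 of 22 positions.

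All 5 miR-30 members had a Ct below 35, the Ct part of the study's limit for detection, in conditioned media. In blank media, all 5 did as well. By Ct alone, no member was exclusive to either medium. The study also required a minimum height of the fluorescence signal, which was not applied here. With both limits, the study counted fewer sequences as detected in each medium than the Ct limit alone gives here. Among all 750 miRNA assays, 37.3% had a Ct below 35 in conditioned media, 29.1% in blank media and 23.5% in both, while 13.9% had one in conditioned media only. All 5 members lay on card A, where 39.8% of the 374 assays were detected in conditioned media, 32.6% in blank media, 25.1% in both and 14.7% in conditioned media only. The family's other seed partner on the array, miR-384-5p, a miRNA known from neurons, was undetermined in both media, also on card A.

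Of the members, miR-30c, the sequence that the study carried into its panel of individual assays, had the lowest Ct in both media. The Ct of mmu-miR-30c was 25.52 with embryos and 26.61 without, a difference of -1.09 cycles, where a negative value means an earlier Ct in conditioned media. This corresponds to a 2.14-fold higher template at full efficiency. The hairpins Mir30c-1 and Mir30c-2 give the same mature miR-30c, so that this single assay reads the products of both.

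The widest differences were found for miR-30b and miR-30d, the products of 1 neighbouring gene pair. The Ct of mmu-miR-30b was 25.77 with embryos and 28.22 without, a difference of -2.45 cycles, or 5.47-fold. For mmu-miR-30d, the Ct was 29.58 with embryos and 32.44 without, a difference of -2.86 cycles, or 7.24-fold. While their Ct values lay 3.81 cycles apart in conditioned media and 4.22 apart in blank media, their differences between media were within 0.41 cycles of each other.

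The smallest differences were found for miR-30a-5p and miR-30e, the pair that differs at 1 base. The Ct of mmu-miR-30e was 27.14 with embryos and 27.54 without, a difference of -0.40 cycles. For miR-30a-5p, the only member with a later Ct in conditioned media, the values were 28.17 and 27.95, a difference of 0.22 cycles. Both were within 1 cycle of no difference.

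**Figure D1:**
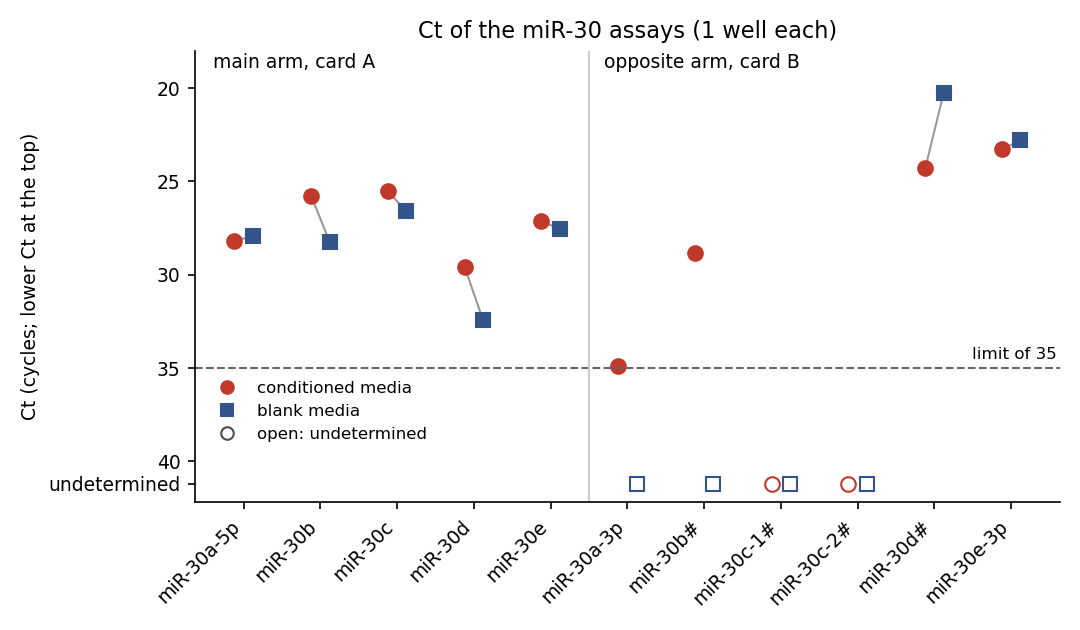
Ct in cycles, with low values at the top, of the 5 main-arm assays on card A and the 6 opposite-arm assays on card B, in conditioned media (circles) and blank media (squares). Each point is 1 well, and open symbols are undetermined wells. All main arms lie above the limit of 35 in both media, whereas 4 opposite arms do so in conditioned media and 2 in blank media.

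Over the 5 members, the difference between media had a median of -1.09 cycles, from -2.86 to 0.22. Over the 176 miRNA assays with a Ct below 35 in both media, the median was 0.05 cycles, and over the 94 such assays of card A it was -0.12. Among the 72 of the 94 with a Ct of 15 or later in both media, the median lay nearer to that of the members, at -0.50 cycles, and 45.8% were earlier by more than 1 cycle. An earlier Ct with embryos was found for 4 of 5 members, compared with 48.3% of the 176 assays and 52.1% of the 94. It was earlier by more than 1 cycle for 3 of 5 members, miR-30b, miR-30c and miR-30d, compared with 36.4% of the 176 assays and 42.6% of the 94. No member was earlier by more than 5 cycles, which 10.8% of the 176 assays and 12.8% of the 94 were. This is the reading taken here of the study's limit on the change, which is printed there as a conditioned minus blank Ct below 5 and not below -5. As printed, all 5 members meet it, as do 88.6% of the 176 assays and 84.0% of the 94. With only 5 members, these counts are a description and set the family apart from neither background.

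**Figure D2:**
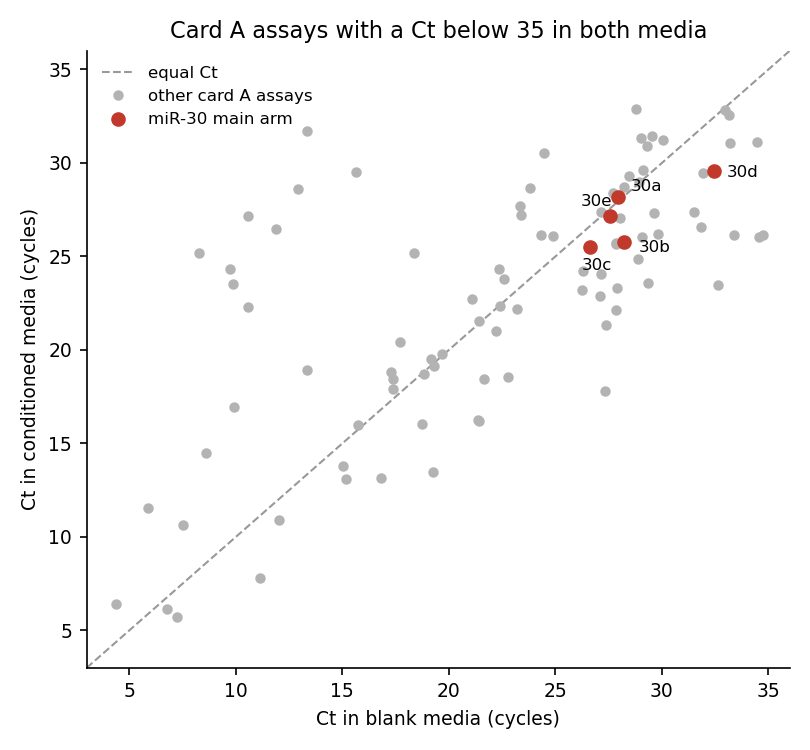
Ct in conditioned media (vertical axis, cycles) against Ct in blank media (horizontal axis, cycles) for the 94 card A assays with a Ct below 35 in both, with the 5 miR-30 members in red and a dashed line at equal Ct. The members lie between 25.52 and 29.58 in conditioned media, and miR-30a-5p is the only one above the line.

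No miR-30 assay was repeated, and the error between wells was gauged from U6, a small nuclear RNA spotted in 4 wells per card. On card A, the SD of its Ct was 0.68 with embryos and 3.22 without, so that a difference between single wells carried an SD of 3.29 cycles. None of the 5 members differed between media by more than this, whereas 40 of the 94 card A assays detected in both media did. The 3.22 rested on 1 well of 20.20 beside 3 wells between 26.26 and 27.14. When the farthest well of each medium was left out, which was decided with the values in view, the SD of a difference was 0.50 cycles. The members miR-30b, miR-30c and miR-30d exceeded it and miR-30a-5p and miR-30e did not. Of the 94 card A assays, 81 exceeded it, so that passing it does not set these members apart. The SD of U6 describes wells and not embryos or cultures.

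Wells also disagreed where the table listed 1 miRNA name in 2 wells; whether the primers of such wells were the same was not tested. Of the 5 names listed in 2 wells of 1 card, only miR-136# had a Ct below 35 in both wells of a medium, with 26.44 and 29.30 in conditioned media, a gap of 2.86 cycles. Of the 10 pairs of wells that these names gave over the media, 5 had a Ct below 35 in 1 well only. For the 21 names listed on both cards, 7 pairs of wells were detected in full, with gaps of 1.25 to 14.72 cycles and a median of 4.07, and 10 pairs in 1 well only. The gap for miR-136# was as wide as the difference between media of miR-30d, -2.86 cycles, and wider than those of the other members.

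The direction of the miR-30 differences depended on the reference. U6 was itself earlier in conditioned media on card A, with a mean difference of -4.08 cycles. Relative to the mean of the U6 wells, the Ct of every member was later in conditioned media, by 1.23 cycles for miR-30d, 1.63 for miR-30b, 2.99 for miR-30c, 3.68 for miR-30e and 4.30 for miR-30a-5p. This mean includes the blank well of 20.20, and without the farthest wells the values were 2.49 for miR-30d, 2.89 for miR-30b, 4.25 for miR-30c, 4.94 for miR-30e and 5.56 for miR-30a-5p. Relative to the mean, the median over the 94 card A assays was 3.97 cycles, against 2.99 for the 5 members. Centred on the card A median instead, miR-30b and miR-30d remained more than 1 cycle earlier in conditioned media, at -2.34 and -2.74 cycles, while miR-30c stood at -0.98. Subtracting 1 reference per card moves all members alike, and therefore miR-30d and miR-30b stood lowest in this scale, and miR-30a-5p highest, under each reference.

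**Figure D3:**
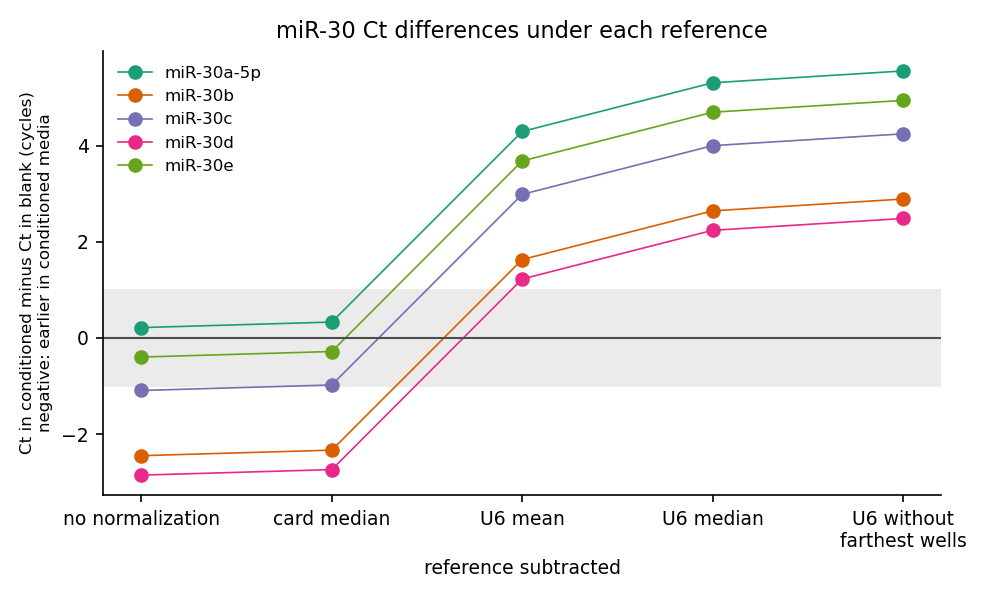
Ct in conditioned media minus Ct in blank media (vertical axis, cycles) of the 5 miR-30 members, without normalization and after subtraction of each of 4 references (horizontal axis). The grey band spans 1 cycle on either side of 0. The members miR-30b, miR-30c and miR-30d lie below the band without normalization, and all 5 lie above it relative to U6.

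In conditioned media, the members were ordered miR-30c, miR-30b, miR-30e, miR-30a-5p and miR-30d from the lowest Ct to the highest. The first neighbours, miR-30c and miR-30b, were 0.25 cycles apart, less than the SD of 0.96 cycles that the U6 wells give for a gap between single wells of this medium, and each later step, of 1.02 to 1.42 cycles, was larger. In blank media the order was miR-30c, miR-30e, miR-30a-5p, miR-30b and miR-30d. There, the first 4 members followed each other by 0.27 to 0.93 cycles and miR-30d came 4.22 cycles after miR-30b, all less than the corresponding SD of 4.55 cycles. Without the farthest U6 well, the SD of a gap was 0.12 cycles in conditioned media and 0.69 in blank media. All gaps exceeded it in conditioned media, and in blank media those from miR-30c to miR-30e and from miR-30b to miR-30d did. The members spanned 4.07 cycles in conditioned media and 5.83 in blank media. Thus miR-30c was first and miR-30d last in both media, and miR-30b held different places. Assays differ in efficiency, so that these orders are of Ct and not of amount.

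Ranked by Ct among the 280 assays detected in conditioned media, with 1 the lowest Ct, the members held ranks 141 for miR-30c, 144 for miR-30b, 171 for miR-30e, 189 for miR-30a-5p and 213 for miR-30d. Among the 218 detected in blank media, the ranks were 137, 159, 149, 156 and 199 in the same order of members. In conditioned media, miR-30c and miR-30b thus stood near the middle of the order and the other members later. Among the 149 assays of card A detected in conditioned media, the ranks ran from 63 for miR-30c to 111 for miR-30d, and the median member ranked 82. Among the 236 assays of both cards with a Ct of 15 or later, the median member ranked 127.

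The 6 opposite-arm assays, all on card B, were less uniform than the main arms. In conditioned media 4 had a Ct below 35 and in blank media 2 did, compared with 34.8% and 25.5% of the 376 card B assays. The arm miR-30b# had a Ct of 28.85 with embryos and none without. For miR-30a-3p, the Ct was 34.90 with embryos, the latest of the 280 detected assays, and none was given without. Both miR-30c-1# and miR-30c-2# were undetermined in both media, although their shared main arm had the lowest Ct of the family. Detection in conditioned media only, as for miR-30b# and miR-30a-3p, was found for 13.0% of card B assays.

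The remaining opposite arms, miR-30d# and miR-30e-3p, were detected in both media and, without normalization, were later in conditioned media. The Ct of miR-30d# was 24.30 with embryos and 20.25 without, a difference of 4.05 cycles. For miR-30e-3p, the Ct was 23.28 and 22.80, a difference of 0.48 cycles, and of 7.55 relative to U6, which on card B differed by -7.07 cycles between media. Each had a lower Ct than the main arm of its own hairpin, by 5.28 cycles in conditioned media and 12.19 in blank media for miR-30d#, and by 3.87 and 4.74 for miR-30e-3p. In contrast, miR-30b# and miR-30a-3p were 3.08 and 6.74 cycles later than their main arms in conditioned media. Without normalization, miR-30d# differed between media in the opposite direction to miR-30d. Relative to the U6 wells of their own cards, both were later in conditioned media, by 11.12 cycles for miR-30d# and 1.23 for miR-30d. The arms were read on different cards with separate reverse transcription, and the part of this in the differences between arms was not tested.

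The main arms that differ at 1 base had close Ct values, and the opposite arms that differ at 1 base did not. The Ct values of miR-30a-5p and miR-30e, identical but for 1 base, lay 1.02 cycles apart in conditioned media and 0.41 in blank media. Those of miR-30a-3p and miR-30e-3p, also identical but for 1 base, lay 11.63 cycles apart in conditioned media, and in blank media miR-30e-3p alone had a Ct. How far either assay of a pair reads the template of the other was not tested.

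In the order of the deposited table, in which a card of 384 wells reads as lines of 24, miR-30b, miR-30c and miR-30d stood next to each other in the second line of card A, and miR-30a-5p and miR-30e next to each other in the last. Both this order and the gene pairs place miR-30b with miR-30d, and they place miR-30c differently, beside that pair on the card and beside Mir30a and Mir30e in the genome. The difference of miR-30c, -1.09 cycles, lay between those of miR-30e and miR-30b. Among the other assays detected in both media, the median difference was 0.66 cycles over the 11 of the second line and -1.37 over the 12 of the last. These neighbours were mixed in direction, with 5 of the 11 and 9 of the 12 earlier in conditioned media, and the part of the place on the card in the miR-30 differences was not tested.

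Other lists were set beside the members to see how such families and markers behaved in the same wells. The miR-290 to miR-295 sequences, produced by pluripotent cells of the embryo, were detected in conditioned media by all 8 assays of the list's 7 names, led by miR-292-3p with a Ct of 19.62, and by none in blank media. The study listed these names from the same samples by a filter for minimal or no detection in blank media. Their pattern is therefore no independent check of the labels. Of the 9 other assays named miR-290 to miR-295, 4 were detected in conditioned media, where 37.3% of all assays were, and none in blank media. Of the 4, miR-293# had a Ct of 19.63 and the other 3 lay near the limit, between 33.03 and 34.82. Summed over detected assays as if all were equally efficient, and written as 1 Ct, the listed assays stood at 18.51 in conditioned media, with miR-292-3p counted on each card. The miR-30 members, summed in the same way, stood at 24.26 in conditioned media and 25.43 in blank media, a difference of -1.17 cycles. The sums of different assays are not comparable as amounts.

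The let-7/miR-98 family, which is known to accumulate as cells differentiate, and the miR-15/16 family, known for repressing cell cycle genes, are, like miR-30, groups of sequences that share a seed. Of 9 let-7 and miR-98 assays, all on card A, 3 were detected in conditioned media, with Ct values from 28.18 for let-7e to 31.54 for let-7b. None was detected in blank media. Of all card A assays, 39.8% were detected in conditioned media and 32.6% in blank media. Of 7 miR-15/16 assays, 4 were detected in conditioned media, where 37.3% of all assays were. They ran from 24.51 for miR-195 to 33.01 for 1 of the 2 wells of miR-322, whose other well was undetermined. In blank media, where 29.1% of all assays were detected, only miR-497 was, with a Ct of 23.55 and none in conditioned media. Neither family had an assay detected in both media, as 23.5% of all assays were, although miR-195 missed the limit narrowly in blank media, with a Ct of 35.55. Detection of a whole group in both media was not particular to miR-30, since miR-29a, miR-29b and miR-29c, looked up after their values were seen, also had it, with Ct values of 29.61, 31.21 and 28.37 with embryos and 29.10, 30.04 and 27.71 without.

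Blood miRNAs were examined as markers of another possible source. Of the list's 8 assays, 6 were detected in blank media, compared with 29.1% of all 750 miRNA assays. Of these, 5 were detected in conditioned media as well, compared with 23.5% of all assays detected in both. Among these, miR-150, known from lymphocytes, had a Ct of 27.40 with embryos and 27.15 without, and miR-486, known from erythroid cells, had 27.72 and 23.35. The myeloid miR-223 was read on each card, with 31.45 and 29.54 on card A and, in the other direction, 27.38 and 31.73 on card B. Summed as above, with miR-223 counted on each card, the list stood at 25.69 in conditioned media and 23.18 in blank media, with miR-223 and miR-486 its lowest Ct in the 2 media. The difference between these sums rested on miR-486, without which they were 26.09 and 26.36. The erythroid miR-451 and miR-144 were undetermined in both. The markers other than miR-451 and miR-144 thus had a Ct in blank media beside the miR-30 members, and their part in the miR-30 values was not tested.

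**Figure D4:**
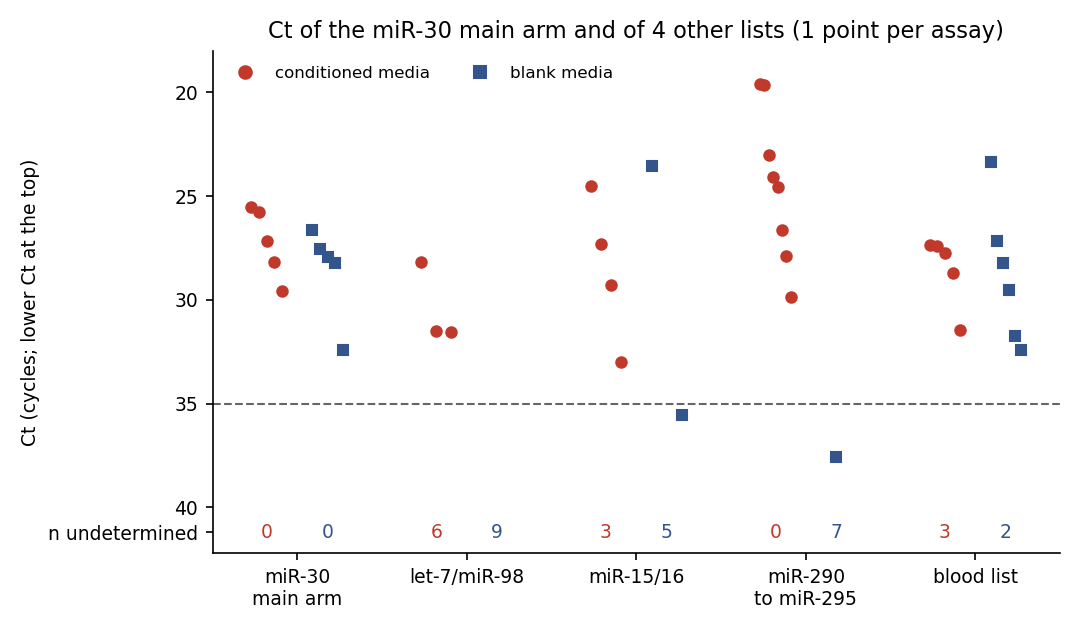
Ct (vertical axis, cycles, low values at the top) of the miR-30 main arm, 2 other seed families, the miR-290 to miR-295 sequences and the blood list, in conditioned media (circles) and blank media (squares). Each point is 1 assay, the dashed line is the limit of 35, and the numbers count undetermined assays. The miR-30 members and the blood list have several points in both media, whereas let-7/miR-98 has none in blank media.

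Within the study's panel of conserved sequences, miR-30c was 1 of 4 detected in both media on the arrays, by Ct alone. The differences between media were -4.21 cycles for miR-191, -2.10 for miR-20a, -1.09 for miR-30c and 0.48 for miR-142-3p, and miR-320 was undetermined in blank media. All were assays of card A. In the study's individual assays of blastocyst media, miR-30c was found only where embryos had been cultured. In its assays of media from several stages, a trace of miR-30c was reported for blank droplets. Those individual assays were not examined here.

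The assays of card A whose pair of Ct values was most like the family's were found by their distance from the members' medians, 27.14 in conditioned media and 27.95 in blank media, among the 89 other assays detected in both. The nearest was miR-302b, from a cluster known from pluripotent cells, with a Ct of 27.07 and 28.02 and a distance of 0.10 cycles. It was followed by miR-150, miR-29c, miR-192 and miR-24, at 0.84 to 1.51 cycles. These distances rest on 2 values per assay.

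Of the control RNAs other than U6, snoRNA135 and snoRNA202 had a Ct in conditioned media on both cards and U87 on card A, and all of their wells were undetermined without embryos. For Y1, the card B well with embryos gave 15.52, and its other wells, both of card A included, gave no Ct. The plant sequence miR-159a was undetermined in all wells. Blank media thus held a Ct for each miR-30 member in wells of the same card on which these control assays had none. U6 had a Ct in all 4 of its blank wells of that card, from 20.20 to 27.14.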

How the data were processed

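One sample of conditioned media and one of blank media were analysed. The authors lysed the media without RNA extraction, ran Megaplex reverse transcription and pre-amplification, amplified on a Viia7 and exported each Ct with QuantStudio software. The Ct values were deposited without normalization, and wells without a Ct as undetermined. For the threshold settings, the sources used here give no value, and the study's second limit, on the height of the fluorescence signal, was not applied. A deposited table of fold changes is the authors' own comparison and was not used.

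A Ct below 35 was called detected, and counts leave out the 18 wells of control RNAs. Counts were first tested on a simulated table of 750 assays with known classes. Differences were taken without normalization. Alternatives were Ct limits of 32 and 38 or any Ct, U6 or card-median references, undetermined wells set to 40, and, added after seeing the data, U6 without its farthest wells and the 3p assays counted as members. The text names all miR-30 assays, assays with the same seed, the panel and control assays, the lists given and the 5 most alike assays. Members and lists were chosen with earlier results of these data known. Python 3.11.15, pandas 2.3.3, numpy 2.4.6 and matplotlib 3.10.9 were used.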

Additional observations from a re-analysis of the deposited data

How the results depend on the processing

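The direction of the miR-30 differences rested on the reference. The median over the 5 members, -1.09 cycles without normalization, was 2.99 relative to the U6 mean, 4.0 relative to the U6 median and 4.25 relative to U6 without its farthest wells. In the same order of references, the differences were 1.63, 2.65 and 2.89 cycles for miR-30b, 2.99, 4.0 and 4.25 for miR-30c, and 1.23, 2.24 and 2.49 for miR-30d, and the count of members more than 1 cycle earlier in conditioned media was 0 under each, compared with 3, beside 12.8%, 5.32% and 5.32% of the 94 card A assays. By construction, each of these references adds the same number of cycles to every member. Centred on the card median, the median over the members was -0.98 cycles and the count was 2, beside 41.5% of those assays. A Ct limit of 32 made 1 member, miR-30d, exclusive to conditioned media, since its Ct in blank media was 32.44, and counting the 3p assays as members also made 1 exclusive, miR-30a-3p. The median rank of the members in conditioned media was 171 of 280, 82 of 149 when card A was ranked alone and 127 of 236 among assays with a Ct of 15 or later, since fewer assays were ranked. The count of members more than 5 cycles earlier was 0 under every alternative run. No paired analysis was possible because each medium had 1 sample. With 1 well per assay and 1 droplet per medium, neither the error of a single miR-30 Ct nor that between cultures could be measured.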
